A study of Mus musculus with 4 samples.

Results

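This account compares a colon tumour array with a normal colon array from mice of the genotype CDX2; Dmt1F/F/ApcF/+, called F/F here, gene by gene. The series holds 4 Affymetrix arrays, of which these are 2, and the other pair comes from CDX2; Dmt1+/+/ApcF/+ mice, called wild-type here. All of these mice, the wild-type controls and the normal tissue included, carried the ApcF/+ genotype and the label CDX2, which the labels do not spell out, on a C57BL/6 background at 3 months of age. The letter F conventionally denotes a loxP-flanked allele, and Dmt1 is another name of Slc11a2, an importer of iron and other divalent metals. The design text names 4 F/F and 7 wild-type animals, and the sources used here do not say whether RNA was pooled or whether both tissues came from the same animals. Of 22180 genes with a probe set of their own, 12060 had a signal of log2 4.67, the median level over genes, or more on at least 1 of the 4 arrays, and these are the genes compared. With 1 array a side there is no replicate check, so each value is a difference of 2 log2 signals with no error and no p-value. A log2 difference of 1 is 2-fold, and positive values mean a higher signal in the tumour.

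Apc restrains the Wnt pathway: it is part of the complex that marks beta-catenin for destruction, and intestinal tumours commonly start when it is lost. Beta-catenin then acts with TCF and LEF factors on genes that normally mark the stem cells at the crypt base, among them several that feed back on the pathway. The upper crypt and surface of the normal colon hold absorptive colonocytes, mucus-making goblet cells and hormone-making enteroendocrine cells. The piece of tissue also brings connective tissue, muscle, fat, vessels and lymphoid follicles in amounts that depend on how it was cut.

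The altered genes came first. Slc11a2 stood at log2 6.13 in F/F normal colon and 6.19 in F/F tumour, against 6.51 and 6.64 on the wild-type arrays, so both F/F arrays were below both wild-type arrays. Apc stood at 8.70 in F/F normal colon and 8.53 in F/F tumour. The exons behind each probe set were not looked up, so these levels do not measure a deletion. The median over all probe sets lay between 4.27 and 4.34 on the 4 arrays. Sex-linked transcripts also differed between the arrays. Xist went from 8.55 to 10.10 between F/F normal colon and F/F tumour, a difference of 1.55, and from 8.95 to 7.11 in wild-type, a difference of -1.84. The Y-linked Kdm5d (-0.97), Uty (-0.94) and Eif2s3y (-0.64) were lower in the F/F tumour. The part of these sex-linked differences in the other differences was not tested. Xist and these Y-linked genes were all above the median level over genes on each of the 4 arrays. The lowest of these signals was 6.00, for Kdm5d in F/F tumour, and Xist was lowest at 7.11 in wild-type tumour. Each array thus held signal of Xist and of Y-linked genes, and whether this came from pooled RNA of both sexes was not tested.

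In the F/F tumour 721 genes were higher by 2-fold or more, 5.98% of the genes compared, and 460 were lower, 3.81%, which makes 1181 genes or 9.79%. The lists with the highest medians were Wnt targets, posterior Hox genes and B cells, and those with the lowest were fat cells, brush border enzymes and genes of the more proximal gut. At log2 3 or more 47 genes were higher and 27 lower, and at log2 4 or more 13 and 9. The median difference was 0.04, and 68.9% of genes lay within 0.5 of 0. The middle 95% of differences ran from -1.21 to 1.5, while between the normal arrays of the 2 genotypes it ran from -0.72 to 0.68. Of the 721 higher genes 337 (46.7%) were below the median level in F/F normal colon, and of the 460 lower genes 112 (24.3%) were below it in the tumour.

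**Figure D1:**
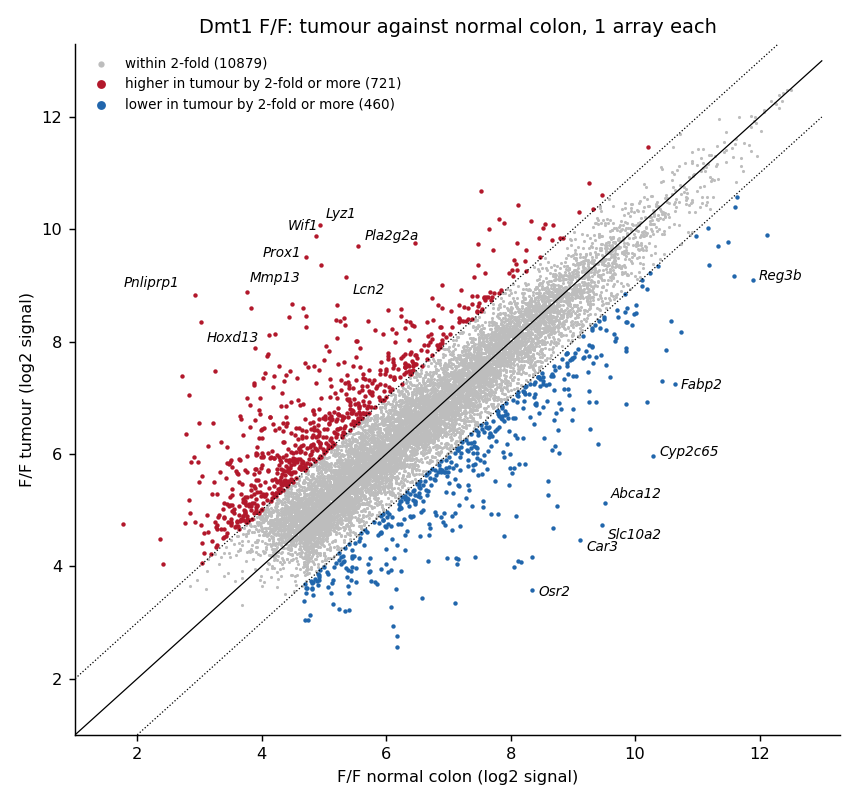
Log2 signal of each of 12060 genes in F/F normal colon (x axis) and F/F tumour (y axis), 1 array each; the solid line marks equal signal and the dotted lines a 2-fold difference. The 721 genes above the upper line include Pnliprp1 and Hoxd13, which start near log2 3, and the 460 below the lower line include Osr2 and Slc10a2.

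The highest gene was Pnliprp1, followed by Hoxd13. The pancreatic lipase-related gene Pnliprp1 went from 2.93 in F/F normal colon to 8.83 in F/F tumour, a difference of 5.90 or 59.7-fold, and from 4.25 to 9.15 in wild-type. Pnliprp2, its close relative, differed by 3.39. Spock2, a secreted proteoglycan, stood at 4.96 and 9.37 (4.41), and the receptor phosphatase Ptprz1 at 4.48 and 8.67 (4.19). Other genes among the 30 with the largest positive differences were the adenylate cyclase Adcy8 (4.23), the decoy receptor for RANKL Tnfrsf11b (3.99), the innate immune adaptor Sting1 (3.75), the axon guidance receptor Robo1 (3.54), the plasminogen activator Plat (3.45) and the gasdermin Gsdma (3.33). Less studied members were 9330117O12Rik (4.67), Erich3 (3.68) and Mettl7a3 (3.66). All of the 30 also passed 2-fold in wild-type, with differences from 1.72 to 4.90 there, and 20 of the 30 were below the median level in F/F normal colon.

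The lowest gene was Osr2. Osr2, a zinc finger transcription factor, went from 8.34 in F/F normal colon to 3.57 in F/F tumour, a difference of -4.77, and from 7.17 to 3.44 in wild-type. Abca12, a lipid transporter, stood at 9.51 and 5.12 (-4.39), the sulfate transporter Slc13a1 at 8.17 and 4.08 (-4.10), and the steroid dehydrogenase Hsd3b3 at 8.06 and 3.98 (-4.07). Other genes among the 30 with the most negative differences were the hexokinase-like Hkdc1 (-3.35), the serine palmitoyltransferase subunit Sptssb (-3.27), Arhgap20 (-3.28), the retinal dehydrogenase Aldh1a1 (-3.14), the mucin-type glycosyltransferase B3gnt6 (-3.11), the myelin and lymphocyte protein Mal (-2.96), Akr1c18 (-2.87) and 9130221F21Rik (-3.41). All of the 30 also passed 2-fold in wild-type, from -5.29 to -1.11, and 16 of the 30 were below the median level in the F/F tumour. Sis, Ugt2b5 and 9130221F21Rik were below that level on both wild-type arrays, so the sizes of their wild-type differences are uncertain. They entered only through the F/F normal array, which favours the F/F difference.

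Gene lists for pathways and cell types put these genes in context. The 60 lists name 1220 distinct genes, of which 919 were compared, 197 were below the median level on all arrays and 104 had no probe set of their own. Among the 58 lists with at least 5 genes compared, 7 had a median difference of 1 or more and 5 had one of -1 or less, beside a median of 0.04 over all genes. The 11 housekeeping genes had a median of 0.17, and none of them passed 2-fold, with Actb at -0.05 and Gapdh at 0.20.

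**Figure D2:**
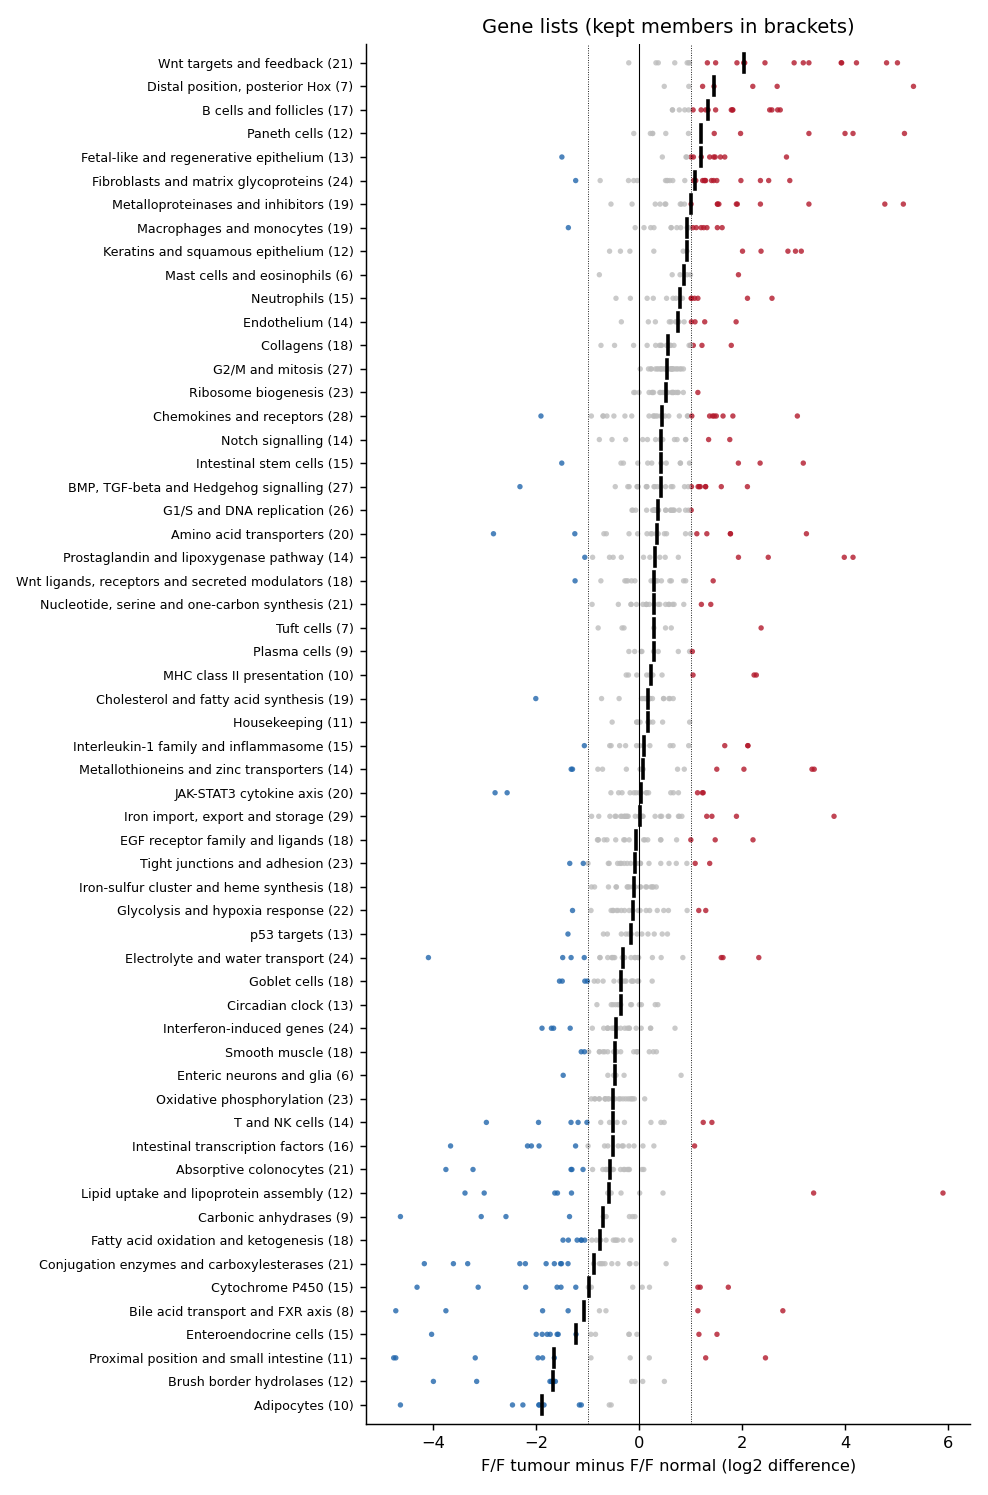
F/F tumour minus F/F normal log2 difference (x axis) of every compared member of the 58 lists with at least 5 such genes, ordered by list median (black bar); red points are 2-fold or more higher, blue points 2-fold or more lower, and dotted lines mark 2-fold. Wnt targets stand at the top with a median of 2.03 and adipocyte genes at the bottom with -1.90.

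The Wnt targets were the list with the highest median. Of 21 genes 14 were higher by 2-fold or more, none lower, and the median was 2.03, beside 2.36 in wild-type. Several were secreted inhibitors of the pathway: Wif1, which binds Wnt proteins, went from 4.87 in F/F normal colon to 9.89 in F/F tumour (5.02), Notum, which removes their lipid, from 2.83 to 7.05 (4.22), and Dkk2, an antagonist of the Lrp5 and Lrp6 co-receptors, from 4.22 to 8.14 (3.92). The intracellular inhibitor Nkd1 differed by 3.93, the membrane antagonist Apcdd1 by 3.01, the scaffold Axin2 by 2.05, and the ligases that remove Frizzled receptors, Rnf43 and Znrf3, by 2.03 and 1.90. Among factors, Prox1 stood at 4.71 and 9.51 (4.80), Lef1 at 4.00 and 6.44 (2.44) and Myc at 6.30 and 7.62 (1.32). Each of these genes was also higher in wild-type, where Prox1 differed by 4.56, Lef1 by 3.18 and Myc by 1.56. Members within 2-fold were Ascl2 (0.98), Cd44 (0.96), Dkk3 (0.93), Sox9 (0.69), Ccnd1 (0.37), Ephb3 (0.32) and Nkd2 (-0.20).

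Probe sets of a gene did not always move together. Lgr5, the R-spondin receptor that marks crypt stem cells, differed by 3.19 with the brighter probe set used here (5.20 in F/F normal colon, 8.39 in F/F tumour) and by -0.22 with its other probe set. The lower of the probe set differences was 0.64 for Axin2 and 1.31 for Notum.

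The ligands and receptors of the pathway showed few such differences. Of 18 genes of the Wnt ligand, receptor and modulator list 1 was higher, the receptor Lgr6 (4.46 in F/F normal colon, 5.89 in F/F tumour, 1.44), and 1 lower, the Frizzled receptor Fzd5 (7.86 and 6.62, -1.25), with a median of 0.30. Wnt5a (0.86) and Fzd6 (0.90) were within 2-fold, as were the R-spondins Rspo1 (-0.28) and Rspo3 (-0.75). In the stem cell list 3 of 15 genes were higher, Lgr5, Sox4 and Smoc2, and 1 was lower, with a median of 0.43. The transcription factor Sox4 stood at 6.23 and 8.58 (2.35), with 1.0 for its other probe set, and Smoc2, a matricellular protein of the crypt base, at 5.33 and 7.26 (1.93). Prom1, a membrane protein of stem and progenitor cells, stood at 9.85 and 8.34 (-1.51).

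Genes of fetal and regenerating epithelium formed another list with a high median, 1.20 in F/F and 1.13 in wild-type. Of 13 genes 9 were higher and 1 was lower. The secreted chaperone clusterin, Clu, went from 5.20 in F/F normal colon to 8.06 in F/F tumour (2.86), the alarmin Il33 from 4.99 to 6.65 (1.66), the matricellular Ccn1 from 5.39 to 6.97 (1.58) and the connexin Gja1 from 5.42 to 6.87 (1.45). The cornified envelope gene Sprr1a was lower, at 9.25 and 7.75 (-1.50).

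Other developmental pathways were mixed. In the BMP, TGF-beta and Hedgehog list 8 of 27 genes were higher and 1 lower, with a median of 0.42. Bmp7 stood at 5.46 and 7.56 (2.10), Bmp4 at 5.90 and 7.49 (1.59), and the BMP antagonist Grem1 at 6.70 and 7.99 (1.29), while Bmp3, a BMP family member that opposes others, stood at 8.14 and 5.82 (-2.32). Grem1 was at 7.89 and 8.47 in wild-type (0.57), so its F/F normal array was the lowest. In the Notch list 2 of 14 were higher, Hes6 (1.76) and the receptor Notch2 (1.35), with a median of 0.43 and Hes1 at 0.40. In the EGF receptor list 3 of 18 were higher, the neuregulin Nrg1 (5.52 and 7.73, 2.21), the ligand epiregulin, Ereg (1.48), and the phosphatase Dusp4 (1.0), with a median of -0.05. Ereg had a further probe set at 0.40. The receptors Egfr (-0.20), Erbb2 (-0.80) and Erbb3 (-0.81) were within 2-fold.

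Several Paneth cell products were higher. Paneth cells secrete antimicrobial proteins in small intestinal crypts and are largely missing from normal colon. Of 12 genes 6 were higher and none lower, with a median of 1.21, beside 1.75 in wild-type. Lysozyme 1, Lyz1, went from 4.93 in F/F normal colon to 10.09 in F/F tumour (5.15), the secreted phospholipase Pla2g2a from 5.55 to 9.70 (4.15), Mmp7, which activates defensins, from 6.46 to 9.75 (3.30), and Habp2 from 3.98 to 5.95 (1.97). Pla2g2a was at 8.07 in wild-type normal colon, so the F/F normal array was the lowest of the 4. The second Mmp7 probe set differed by 0.03. Of 9 alpha-defensin genes with a probe set of their own 8 were higher, with a median of 2.65, among them Defa24 (4.44 and 8.44, 4.00), Defa22 (3.57), Defa41 (3.57) and Defa35 (3.10). Defensin probe sets, and those of Lyz1 and Lyz2, can take signal from near-identical relatives, so the member is uncertain. The mucosal pentraxins differed between the genotypes: Mptx2 was at 3.50 and 4.46 in F/F (0.96) but 3.65 and 8.59 in wild-type (4.94), and Mptx1 was at 7.27 and 7.52 in F/F (0.25) but 8.02 and 5.46 in wild-type (-2.56).

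Genes that mark position along the gut stood apart. Of 7 genes of the distal list, all posterior Hox genes, 5 were higher and none lower, with a median of 1.45, beside 1.14 in wild-type. Hoxd13, expressed at the hind end of the gut, was at 3.02 in F/F normal colon and 8.35 in F/F tumour (5.33, 40.1-fold), whereas it was at 6.86 and 8.58 in wild-type (1.72). The F/F normal array alone was low. Hoxb13 stood at 3.80 and 6.48 (2.68), Hoxd11 at 4.21 and 6.42 (2.21), Hoxd10 at 5.25 and 6.70 (1.45) and Hoxa10 at 4.44 and 5.67 (1.23). Of 11 genes of the proximal list 6 were lower and 2 higher, with a median of -1.65, beside -2.07 in wild-type.

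The Hox clusters differed from one another. In the Hoxb cluster 6 of 8 genes were lower, from Hoxb8 (4.82 and 3.49, -1.33) to Hoxb6 (8.08 and 4.89, -3.19), with Hoxb5 at -2.83, Hoxb3 at -2.57, Hoxb4 at -1.97 and Hoxb7 at -1.68. Hoxb9 was within 2-fold (-0.71) and Hoxb13, at the far end of the cluster, was the only one higher. In the Hoxa cluster 4 of 10 were higher, Hoxa9 (5.41 and 7.18, 1.77), Hoxa5 (1.29), Hoxa10 (1.23) and Hoxa6 (1.12), and none lower. In the Hoxd cluster 3 of 4 were higher. Between the normal arrays the distal list was lower in F/F, with a median difference of -0.88, and the proximal list higher, with 0.34, while between the tumour arrays these medians were -0.16 and 0.13. Where along the colon each piece was taken is not in the labels, so tissue position and tumour status cannot be told apart here.

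Transcription factors of the intestine were mostly lower or little different. Of 16 genes 5 were lower and 1 higher, with a median of -0.51. Cdx2, the homeobox factor that sets intestinal identity, went from 8.70 in F/F normal colon to 6.61 in F/F tumour (-2.09) and from 7.78 to 5.22 in wild-type (-2.56). Isx, a homeobox factor that restrains vitamin A uptake, stood at 8.75 and 5.08 (-3.66), Ppara at 5.86 and 3.69 (-2.17), Pparg at 9.53 and 7.58 (-1.95) and Hnf4g at 9.03 and 7.80 (-1.24). The related Hnf4a (-0.61) and Cdx1 (-0.99) were within 2-fold, and the T-box factor Tbx3 was higher (1.07).

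Absorptive colonocyte genes were divided. Of 21 genes 5 were lower and none higher, with a median of -0.58, whereas 14 of the 21 were lower in wild-type, with a median of -1.42. The bile acid transporter subunit Slc51a went from 7.11 in F/F normal colon to 3.35 in F/F tumour (-3.76), and the adhesion protein Tmigd1 from 9.40 to 6.17 (-3.23). Guca2a, which makes guanylin, stood at 10.97 and 9.88 (-1.09). Other surface products were within 2-fold in F/F and lower in wild-type: the chloride and bicarbonate exchanger Slc26a3 was at 11.57 and 11.29 in F/F but 11.46 and 9.17 in wild-type, and the carbonic anhydrase Car4 at 10.29 and 10.10 in F/F but 10.30 and 8.12 in wild-type. For these genes the F/F tumour array lay near both normal arrays and the wild-type tumour array alone was low. A tissue piece with fewer such cells and cells with less of this RNA cannot be told apart in bulk RNA, here or for any other cell type below.

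Brush border hydrolases, the digestive enzymes of the apical membrane, had one of the lowest medians. Of 12 genes 8 were lower and none higher, with a median of -1.68, beside -1.01 in wild-type. The intestinal alkaline phosphatase Alpi went from 8.68 in F/F normal colon to 4.69 in F/F tumour (-4.00) and sucrase-isomaltase, Sis, from 6.10 to 2.94 (-3.16). Sis was at 4.00 and 2.87 in wild-type, so the F/F normal array was the only one above the median level. The peptidases Mep1a (-1.63), Mep1b (-1.69), Enpep (-1.73), Dpep1 (-1.66), Naaladl1 (-1.69) and Xpnpep2 (-1.71) differed by similar amounts in F/F, while Dpep1 differed by -4.10 in wild-type. Dpp4 (0.07), Anpep (-0.08), Mgam (-0.15) and Ace (0.49) were within 2-fold.

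Promoter sequence was searched for the letters known to be bound by the factors named above, since Cdx2 was itself lower. The RefSeq promoter table (GRCm38.p6) held 250 bases before the start for 22 of the 30 lowest genes, and 10 motifs were searched on both strands. These 22 genes have 25 promoters, and the percentages given count promoters, not genes. The CDX motif TTTATTG stood in 3 of the 22 genes, Sis, Fabp2 and Slc10a2, and in 4.204% of all 32851 promoters; the shorter CDX motif TTTATG, which overlaps it in its first letters, stood in 6 of the 22 and 10.764%, and TTTATGG, which holds that shorter one, in 2 and 2.426%. The HNF4 motif CAAAGTCCA stood in 2, Alpi and Cyp2c65, and in 0.384%, and its variant CAAAGTTCA in none of them and 0.335%. The long HNF1 motif stood in none of the 22 and 0.009%. Stretches of 4 of these promoters read 5′ to 3′ on the gene's strand, with 1 match of the motif in capitals. Slc10a2 holds 3 matches of TTTATTG, and another of them stands in lower case in its stretch. A match is a run of letters in the window and was not tested as a binding site.
Sis, chr3:72967884-72967940, minus strand: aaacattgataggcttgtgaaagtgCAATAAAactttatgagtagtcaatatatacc
Fabp2, chr3:122894982-122895038, plus strand: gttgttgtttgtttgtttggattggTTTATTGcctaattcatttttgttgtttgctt
Slc10a2, chr8:5105318-5105374, minus strand: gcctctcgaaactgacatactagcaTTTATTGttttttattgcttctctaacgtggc
Alpi, chr1:87101607-87101650, minus strand: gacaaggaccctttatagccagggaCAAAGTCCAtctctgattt

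Genes of lipid handling went both ways. Of 12 genes of lipid uptake and lipoprotein assembly 5 were lower and 2 higher, with a median of -0.58. The intestinal fatty acid binding protein Fabp2 went from 10.64 in F/F normal colon to 7.25 in F/F tumour (-3.38), lipoprotein lipase, Lpl, from 7.15 to 4.13 (-3.01), apolipoprotein Apob from 8.58 to 6.94 (-1.64) and the fatty acid translocase Cd36 from 6.56 to 4.97 (-1.59). The other Lpl probe set differed by -0.38. The 2 higher genes were Pnliprp1 and Pnliprp2.

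Bile acid genes went both ways. Of 8 genes of bile acid transport and the FXR axis 4 were lower and 2 higher, with a median of -1.08. Slc10a2, the apical sodium-dependent bile acid transporter of the ileum and proximal colon, went from 9.46 in F/F normal colon to 4.73 in F/F tumour (-4.73) and from 7.48 to 3.79 in wild-type (-3.70). The bile acid receptor FXR, Nr1h4, stood at 8.93 and 7.05 (-1.88) and the basolateral exporter Abcc3 at 9.30 and 7.92 (-1.38). The apical exporter Abcc2 was higher, at 4.56 and 7.35 (2.79), as was Cyp27a1 (1.14).

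Among 15 cytochrome P450 genes 6 were lower and 3 higher, with a median of -0.97, which was -0.13 without the level filter and -0.35 against wild-type normal colon. Cyp2c65 stood at 10.29 in F/F normal colon and 5.97 in F/F tumour (-4.32), Cyp2c66 at 6.57 and 3.44 (-3.13), and Cyp2c55 at 12.11 and 9.91 (-2.21), against 11.67 and 7.03 for Cyp2c55 in wild-type, and its other probe set differed by -1.31. Cyp2c68 went the other way, from 5.35 to 7.08 (1.73), with -0.21 in wild-type. Cyp2f2 (1.18) had a further probe set at -0.45. Of 21 conjugation enzymes and carboxylesterases 10 were lower and none higher, with a median of -0.89, led by the carboxylesterase Ces1g (8.35 and 4.17, -4.17), the glucuronosyltransferase Ugt2b5 (6.18 and 2.57, -3.61), Ces1f (-3.33), Ces2a (-2.32) and the sulfotransferase Sult1d1 (10.57 and 8.36, -2.21). Cyp2c, Ces1 and Ugt2b genes have near-identical relatives, so the member behind each signal is uncertain.

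Ion and solute carriers followed several patterns. Of 9 carbonic anhydrases 4 were lower, with a median of -0.70, led by Car3 (9.11 and 4.47, -4.64), Car8 (8.60 and 5.53, -3.07) and Car12 (8.66 and 6.07, -2.59). Car3 is also abundant in fat and muscle, and its other probe set differed by -1.94. Of 24 genes of electrolyte and water transport 4 were lower and 3 higher, with a median of -0.31, beside 11 lower and none higher in wild-type. The colonic proton-potassium pump Atp12a went from 8.12 in F/F normal colon to 10.44 in F/F tumour (2.32) but from 9.63 to 9.09 in wild-type (-0.54), and the chloride channel Ano1 (1.63) and bestrophin Best2 (1.59) were also higher. The water channel Aqp8 was within 2-fold in F/F (9.06 and 8.45) and at 8.89 and 5.99 in wild-type. Sodium channel subunits Scnn1a (0.26), Scnn1b (-0.08) and Scnn1g (0.85) were within 2-fold.

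Of 20 genes of the amino acid transporter list 5 were higher and 2 lower, with a median of 0.35. These counts include the peptide transporter Slc15a1, higher by 1.12, and the monocarboxylate transporter Slc16a1, lower at -1.25. Slc15a1 went the other way in wild-type (-0.99), as did Slc36a1 (1.31 in F/F, -0.47 in wild-type). The other genes of the list named here differed in the same direction in both genotypes. The cystine and glutamate exchanger Slc7a11 stood at 3.76 and 7.00 (3.25), with -0.10 for its other probe set, Slc16a10 at 4.65 and 6.42 (1.77) and Slc7a8 at 6.02 and 7.79 (1.77). Slc3a1, a subunit of the dibasic amino acid transporter of the brush border, was lower, at 9.28 and 6.44 (-2.83). Over all 223 solute carriers 24 were higher and 28 lower, both larger shares than the 5.98% and 3.81% over all genes compared. In wild-type 24 were higher and 29 lower.

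Iron genes, named for the locus altered in these mice, differed little as a group. Of 29 genes of iron import, export and storage 4 were higher and none lower, with a median of 0.02. Lipocalin Lcn2, which binds bacterial iron carriers, went from 5.36 in F/F normal colon to 9.14 in F/F tumour (3.78), ceruloplasmin, Cp, from 5.39 to 7.28 (1.89), the heme and folate carrier Slc46a1 from 4.63 to 6.05 (1.41) and hepcidin, Hamp, from 3.35 to 4.66 (1.31). Hamp was below the median level on both F/F arrays and reached it only in wild-type tumour (5.21), so its size is uncertain. The transferrin receptor Tfrc (0.02), ferritin heavy chain Fth1 (-0.47) and the exporter Slc40a1 (-0.79) were within 2-fold. None of 18 genes of iron-sulfur cluster and heme synthesis passed 2-fold, with a median of -0.10. Of 14 metallothioneins and zinc transporters 4 were higher and 2 lower, with a median of 0.06. The zinc exporter Slc30a2 stood at 3.87 and 7.27 (3.40), and the metallothioneins Mt4 at 3.87 and 7.22 (3.36) and Mt3 at 5.37 and 7.40 (2.03), while Mt1 differed by 0.08.

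Secretory lineages other than Paneth cells were lower or little different. Of 18 goblet cell genes 4 were lower and none higher, with a median of -0.35. The goblet cell factor Spdef stood at 7.69 in F/F normal colon and 6.14 in F/F tumour (-1.55), and the secreted Retnlb at 10.01 and 8.51 (-1.50), against 10.73 and 6.67 in wild-type (-4.06). The mucin Muc2 (-0.15) and trefoil factor Tff3 (-0.26) were within 2-fold. Of 15 enteroendocrine genes 8 were lower and 2 higher, with a median of -1.23. Neurotensin, Nts, went from 8.12 to 4.09 (-4.03), somatostatin, Sst, from 7.62 to 5.74 (-1.88) and the prohormone convertase Pcsk1 from 6.54 to 4.54 (-2.0). The higher ones were Insl5 at 5.42 and 6.93 (1.51) and Pyy at 7.58 and 8.74 (1.16), and Insl5 differed by -0.37 in wild-type. Glucagon, Gcg, another hormone of the distal gut, was lower in the tumour in both genotypes, within 2-fold in F/F and past it in wild-type. Of 7 tuft cell genes 1 was higher, Avil (4.59 and 6.95, 2.37), with a list median of 0.28 that changed sign to -0.39 after quantile normalization.

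Matrix proteases were among the largest differences. Of 19 metalloproteinases and inhibitors 10 were higher and none lower, with a median of 1.01, beside 12 higher and a median of 1.34 in wild-type. The collagenase Mmp13 went from 3.76 in F/F normal colon to 8.89 in F/F tumour (5.13) and from 5.86 to 9.49 in wild-type (3.63). Stromelysin 2, Mmp10, stood at 3.83 and 8.60 (4.77), the membrane-bound Mmp14 at 7.48 and 9.36 (1.89), the gelatinase Mmp2 at 5.91 and 7.43 (1.52) and the macrophage elastase Mmp12 at 4.59 and 6.11 (1.52), against 4.87 and 7.89 for Mmp12 in wild-type. Adam8 (2.35), the plasminogen activator Plau (1.90) and the inhibitor Timp3 (1.55) were also higher, and the inhibitor Timp1 was within 2-fold (0.88).

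Metalloproteinase promoters are classically bound by AP-1, whose motif TGACTCA stood in 4 of the 7 genes of this list past 2-fold that had a promoter in the table, Mmp7, Mmp10, Mmp12 and Mmp13, and in 4.463% of all promoters. All 4 lie on chromosome 9, within a cluster of related genes. The motif stood in 3 of 20 of the highest genes with a promoter and in 3 of 22 of the lowest. The TCF/LEF motif CTTTGAT stood in 2 of 13 Wnt targets with a promoter, Mmp7 and Tnfrsf19, and in 3.205% of all promoters. The shorter CTTTGA, contained in it, stood in 3 of the 13 and 13.832%, CTTTGT in 4 and 16.462%. Among the highest genes CTTTGAT stood in 2 of 20, CTTTGA in 5 and CTTTGT in 7, and among the lowest in 0 of 22, 5 and 7. The percentages count promoters, and a gene can have several. The 7 metalloproteinase genes have 9 promoters, the 13 Wnt targets 20, the 20 highest genes 21 and the 22 lowest 25. For each motif here as many promoters as genes held it. Stretches of the 4 metalloproteinase promoters are given 5′ to 3′ on the gene's strand, with the AP-1 motif in capitals (TGAGTCA is the same motif on the other strand).
Mmp7, chr9:7692002-7692058, plus strand: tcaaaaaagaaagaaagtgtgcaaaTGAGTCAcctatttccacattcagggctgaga
Mmp10, chr9:7502254-7502310, plus strand: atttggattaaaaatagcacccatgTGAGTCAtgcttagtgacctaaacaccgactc
Mmp12, chr9:7347305-7347361, plus strand: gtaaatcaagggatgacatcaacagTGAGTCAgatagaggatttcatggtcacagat
Mmp13, chr9:7272454-7272510, plus strand: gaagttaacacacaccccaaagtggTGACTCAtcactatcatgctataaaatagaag

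Connective tissue and vessel genes passed 2-fold mostly in the higher direction. Of 24 fibroblast and matrix glycoprotein genes 13 were higher and 1 lower, with a median of 1.08, beside 0.69 in wild-type. Against wild-type normal colon the F/F tumour gave a median of 0.53 for this list and 0.22 for the collagens. Thrombospondin 2, Thbs2, went from 4.69 in F/F normal colon to 7.62 in F/F tumour (2.92), the activin subunit Inhba from 2.98 to 5.50 (2.51), fibronectin, Fn1, from 7.65 to 10.00 (2.35) and Igfbp5 from 6.37 to 8.35 (1.97). The receptor Pdgfra (1.40), fibulin Fbln1 (1.27) and the crosslinking enzyme Lox (1.45) were higher, while Fap, the fibroblast activation protein, was lower (-1.23). Of 18 collagens 4 were higher and none lower, with a median of 0.56: Col12a1 (1.79), the basement membrane chain Col4a1 (1.22), Col1a1 (1.05) and Col1a2 (1.0), whose other probe set differed by -0.02. Of 14 endothelial genes 4 were higher, with a median of 0.75, led by Angpt2 (4.17 and 6.05, 1.88) and the cadherin Cdh5 (1.27).

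Smooth muscle genes were mostly within 2-fold and most fat cell genes lower. Of 18 smooth muscle genes 2 were lower, Pln (5.95 and 4.82, -1.13) and Synpo2 (-1.06), and 16 were within 2-fold, 3 of the 18 above 0, with a median of -0.46, whereas 13 were lower in wild-type, with a median of -1.68. Desmin, Des, was at 8.94 in F/F normal colon and 8.51 in F/F tumour, but at 10.00 and 7.55 in wild-type. Of 6 genes of enteric neurons and glia 1 was lower, Calb2 (-1.48), with a median of -0.47. Of 10 adipocyte genes 8 were lower and none higher, with the lowest median of all lists, -1.90, beside -1.37 in wild-type. This list shares Pparg with the intestinal transcription factors and Car3 with the carbonic anhydrases, so it is not made of fat cell genes alone. The fat cell hormone genes Adipoq and Lep were below the median level on all arrays and were not compared. The fat droplet protein Cidec went from 7.18 to 4.72 (-2.46), the fatty acid binding protein Fabp4 from 8.54 to 6.28 (-2.26), and resistin, Retn, from 6.69 to 4.75 (-1.95), against 5.26 and 4.28 for Retn in wild-type. Adipocyte genes had a higher mean level in F/F normal colon (6.94) than on the other arrays (6.03 in wild-type normal colon, 5.09 in F/F tumour and 4.75 in wild-type tumour). The part of fat and muscle content in the other differences was not tested.

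Among lists of at least 5 genes the B cell list showed the widest gap between the genotypes' medians. Of 17 genes 12 were higher and none lower in F/F, with a median of 1.34. None of the 17 passed 2-fold in wild-type, where the median was -0.16. Cr2, Cd22, Pax5, Blk, Fcmr, Fcrla and Cxcr5 reached the median level only on the F/F tumour array. They entered through that array, which favours the F/F difference. The B cell receptor subunit Cd79a went from 5.09 in F/F normal colon to 7.82 in F/F tumour (2.74) and from 5.98 to 6.06 in wild-type. The complement receptor Cr2, high on follicular B cells and follicular dendritic cells, stood at 3.44 and 6.13 (2.69), the adaptor Bank1 at 4.91 and 7.49 (2.58), and Ms4a1, which encodes CD20, at 4.32 and 6.85 (2.53). The follicle chemokine Cxcl13 stood at 8.33 and 10.14 (1.82), against 9.26 and 8.66 in wild-type. For Cd79a, Cr2, Bank1 and Ms4a1 the F/F tumour array was the highest of the 4, and the other 3 arrays lay within 1 log2 unit of each other. The germinal centre factor Bcl6 (0.64) was within 2-fold.

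Other antibody genes did not follow the same pattern over the 4 arrays. Of 9 plasma cell genes 1 was higher, Derl3 (1.03), with a median of 0.28, beside -0.31 in wild-type. Of 16 immunoglobulin variable segments 11 were higher, with a median of 1.18, beside -0.47 in wild-type. The variable segment Igkv4-70 stood at 7.20 in F/F normal colon and 8.92 in F/F tumour (1.72), but at 8.90 and 8.73 in wild-type, so here the F/F normal array was the low one. Of 10 genes of MHC class II presentation 3 were higher, with a median of 0.23. These were H2-Eb2 (3.23 and 5.50, 2.27), H2-DMb2 (4.66 and 6.89, 2.23) and H2-Ob (1.04), of which H2-Ob is known from B cells. In wild-type H2-Eb2, H2-DMb2 and H2-Ob differed by -0.07, -0.27 and -0.06. For each of them the F/F tumour array was the highest of the 4, as for the B cell genes named above. H2-Eb2 and H2-Ob reached the median level only on that array, which favours the F/F difference. The widely expressed H2-Aa (0.44), H2-Ab1 (0.20) and H2-Eb1 (0.26) were within 2-fold. Whether a lymphoid follicle lay in the tumour piece was not tested.

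**Figure D3:**
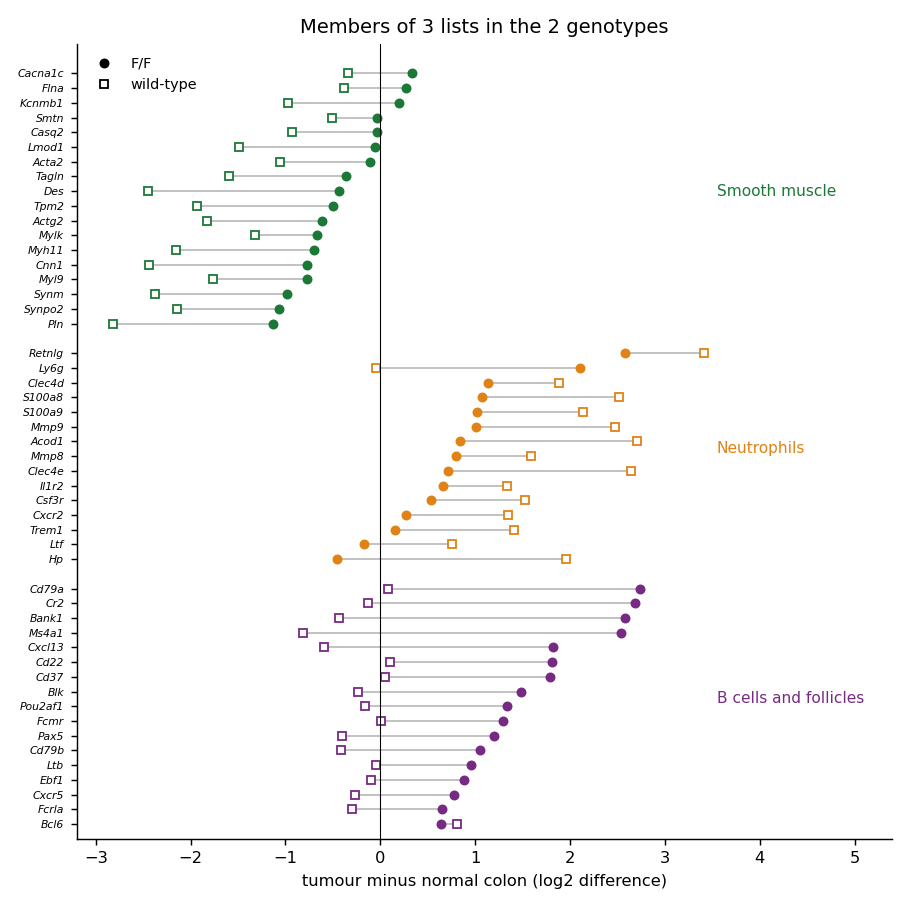
Tumour minus normal log2 difference (x axis) of every compared member of 3 lists, in F/F (filled circles) and wild-type (open squares), 1 pair of arrays each. B cell genes lie to the right in F/F and near 0 in wild-type, while neutrophil genes are mostly higher in wild-type and smooth muscle genes lower in wild-type.

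Neutrophil genes were faint on the F/F arrays. Of 15 neutrophil genes 6 were higher and none lower, with a median of 0.80, beside 13 higher and a median of 1.88 in wild-type. On both F/F arrays 9 of the 15 were below the median level and so entered only through a wild-type array, which favours the wild-type difference, and the F/F median was 0.0 with values raised to that level. Retnlg went from 3.03 in F/F normal colon to 5.61 in F/F tumour (2.58), while the calprotectin subunits S100a8 (3.26 and 4.34, 1.07) and S100a9 (3.04 and 4.06, 1.02) were among those 9, so their sizes are uncertain. Ly6g stood at 6.90 and 9.0 (2.10), but at 8.21 and 8.17 in wild-type, and its relatives of the Ly6 family may share its signal. Of 19 macrophage and monocyte genes 7 were higher and 1 lower, with a median of 0.93, or 0.39 against wild-type normal colon: Ly6c2 (1.61), the scavenger receptor Msr1 (1.31), Lyz2 (1.20), the complement subunit C1qb (1.11) and the receptor Csf1r (1.04) were higher, and the efferocytosis receptor Mertk was lower (-1.38). Of 6 mast cell and eosinophil genes 1 was higher, Alox15 (1.93), with a median of 0.86 that was 0.06 against wild-type normal colon and 0.11 with values raised to the median level.

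T and NK cell genes went both ways. Of 14 genes 5 were lower and 2 higher, with a median of -0.50, which was -1.26 with a stricter level filter. The granzymes Gzma (7.12 and 4.15, -2.97) and Gzmb (6.00 and 4.04, -1.96), the NK receptor subunit Klrd1 (-1.33), and the T cell genes Cd3g (-1.19) and Cd8a (-1.02) were lower. Cd4 (4.44 and 5.68, 1.24) and the interleukin 7 receptor Il7r (1.41) were higher, and Cd4 differed by -0.05 in wild-type.

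Cytokine and defence genes were mixed. Of 15 genes of the interleukin 1 family and inflammasome 3 were higher and 1 lower, with a median of 0.09: Il1b stood at 5.11 and 7.22 (2.11), against 5.98 and 9.24 in wild-type, Il1a at 2.84 and 4.95 (2.11), against 3.51 and 7.43, and Nlrp6 was lower (-1.07). Of 28 chemokines and receptors 8 were higher and 1 lower, with a median of 0.44, led by Cxcl5 (3.80 and 6.87, 3.07) and the follicle chemokine Cxcl13 (1.82), then Cxcl3 (1.63) and Cxcl1 (1.5), with the T cell chemokine Ccl5 lower (-1.91). Of 20 genes of the JAK-STAT3 axis 3 were higher and 2 lower, with a median of 0.03: the receptors Osmr (1.24) and Lifr (1.23) and the cytokine Il11 (1.13) against the antimicrobial lectins Reg3b (11.89 and 9.09, -2.80) and Reg3g (10.74 and 8.18, -2.57). Of 24 interferon-induced genes 4 were lower and none higher, with a median of -0.46, namely Oas3 (-1.89), Ifit1 (-1.71), Irf7 (-1.66) and Isg15 (-1.34). Of 14 genes of the prostaglandin and lipoxygenase pathway 4 were higher and 1 lower, with a median of 0.30, among them cyclooxygenase 2, Ptgs2 (5.51 and 8.01, 2.51), and the lipoxygenase Alox12 (3.90 and 7.88, 3.98).

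Cell cycle and ribosome biogenesis genes differed by small amounts, most of them above 0. The median over all genes compared was also above 0, at 0.04, and 7 of the 11 housekeeping genes were above 0, with a median of 0.17. The share of all genes above 0 was not counted. All 27 genes of G2/M and mitosis were above 0, with a median of 0.53, and none passed 2-fold, the largest being Tpx2 (0.86) and Prc1 (0.81). Of 26 genes of G1/S and DNA replication 23 were above 0 and 1 passed 2-fold, with a median of 0.36. That gene was the polymerase subunit Pole (1.01), whose other probe set differed by -0.37. Of 23 ribosome biogenesis genes 20 were above 0 and 1 passed 2-fold, Nop56 (1.14, and from 0.16 to 1.80 over its 3 probe sets), with a median of 0.52. Of 21 genes of nucleotide, serine and one-carbon synthesis 16 were above 0 and 5 below, with a median of 0.29. The purine enzymes Paics (1.39) and Ppat (1.21) passed 2-fold, and Impdh1 (-0.92) and Mthfd2 (-0.41) were the lowest. None of 66 ribosomal protein genes passed 2-fold.

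Most genes of oxidative phosphorylation and fatty acid oxidation were below 0. Of 23 genes of oxidative phosphorylation 22 were below 0, none by 2-fold, with a median of -0.50. Of 18 genes of fatty acid oxidation and ketogenesis 6 were lower and none higher, with a median of -0.75, among them the kinase Pdk4 (-1.48), the thiolase Acaa2 (-1.38) and the carnitine transferase Cpt1a (-1.06). Of 19 genes of cholesterol and fatty acid synthesis 16 were above 0 and 1 was lower, the malic enzyme Me1 (8.82 and 6.81, -2.01). Their median of 0.17 was the same as that of the housekeeping genes, and was 0.09 to 0.12 after between-array normalization. Of 22 genes of glycolysis and the hypoxia response 2 were higher, the lactate exporter Slc16a3 (1.29) and Pfkfb3 (1.16), and 1 lower, Ndrg1 (-1.30), with a median of -0.13.

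Genes of the squamous and structural epithelium held some of the larger genotype gaps. Of 12 keratin and squamous genes 5 were higher and none lower, with a median of 0.92, which was 0.25 without the level filter and 0.23 with values raised to the median level. The transglutaminase Tgm3 went from 7.53 in F/F normal colon to 10.68 in F/F tumour (3.15) but from 9.44 to 9.26 in wild-type, and Casp14, a caspase of cornified epithelium, from 3.97 to 7.00 (3.03) but from 6.78 to 6.80. For Tgm3 and Casp14 the F/F normal array was the lowest. Krt23 (2.89), Krt36 (2.37) and Krt17 (2.01) were higher in F/F, with 3.53, 2.78 and 1.19 in wild-type, while Krt8 (-0.37), Krt18 (0.28) and Krt19 (-0.18), the keratins of simple epithelium, were within 2-fold. Of 23 genes of tight junctions and adhesion 2 were higher, Cldn4 (1.37) and Cldn8 (1.09), and 2 lower, Cldn15 (-1.35) and Cldn23 (-1.09), with a median of -0.08.

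The p53 target and clock lists differed little. Of 13 p53 targets 1 was lower, Sesn2 (-1.38), with a median of -0.16. None of 13 clock genes passed 2-fold, with a median of -0.36 that was 0.49 against wild-type normal colon. No erythroid gene was compared, and of the exocrine pancreas list only Cela1 was (5.39 and 7.22, 1.83). Cela1 stood at 6.70 and 6.85 in wild-type (0.15), so the F/F normal array was the lowest. The pancreatic enzymes in that list other than Cela1 were not above the median level or had no probe set of their own.

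**Figure D4:**
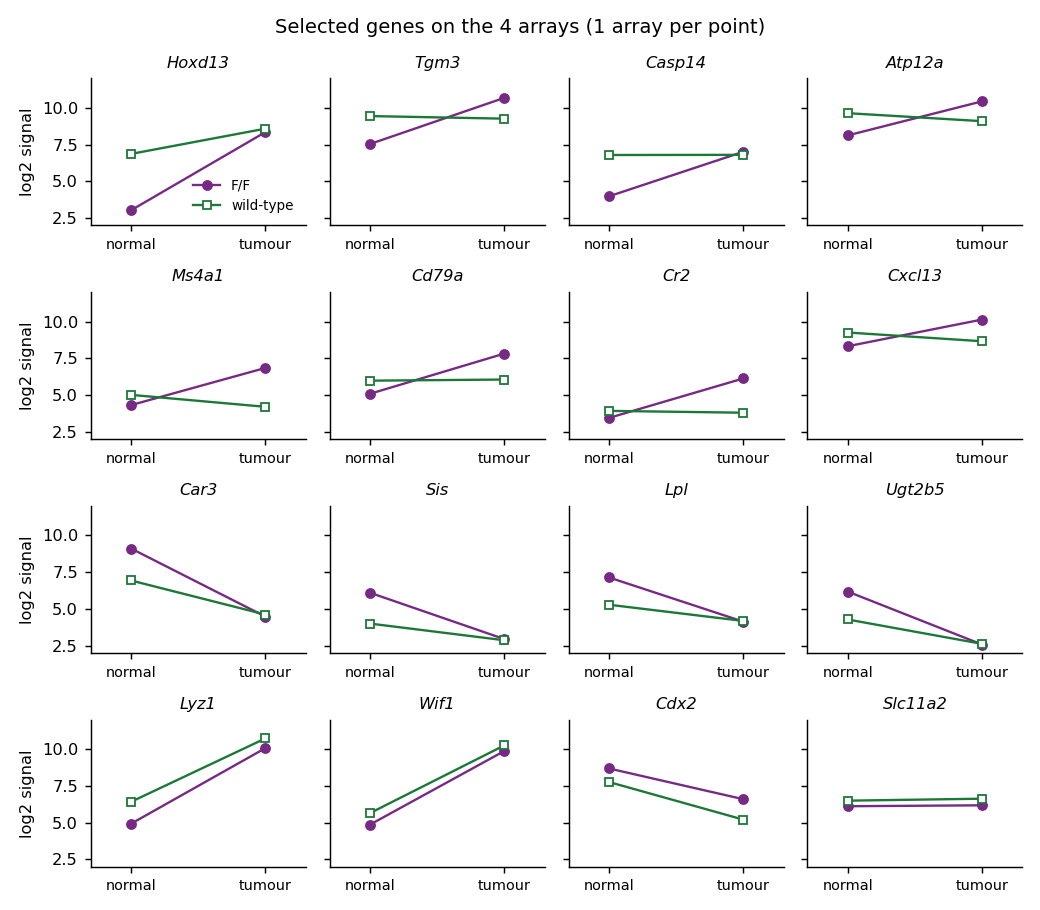
Log2 signal (y axis) of 16 genes in normal colon and tumour, with F/F arrays as filled circles and wild-type arrays as open squares, 1 array per point. In the panels of Hoxd13 and Car3 the genotypes lie farther apart in normal colon than in tumour, and for Ms4a1, Cd79a and Cr2 the F/F tumour array stands above the other 3.

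Of 132 miRNA genes compared 5 were higher and 2 lower, both smaller shares than the 5.98% and 3.81% over all genes compared. RefSeq gave mature sequences for all 7 of these miRNA genes, 10 sequences with 9 distinct seeds. Mir31 went from 2.91 in F/F normal colon to 5.95 in F/F tumour (3.03) and from 3.63 to 5.80 in wild-type (2.17). Mir18, of a miRNA cluster that Myc regulates, stood at 3.51 and 4.84 (1.32). Mir135b stood at 3.44 and 4.59 (1.15), below the median level on both F/F arrays. Mir23b (1.25) and Mir3097 (1.02) were the other higher ones. Mir680-2 stood at 10.49 and 7.86 (-2.63) and Mir680-1 at 7.11 and 6.02 (-1.09), and the genes share 1 mature sequence, so their signals may overlap. The sources used here do not say which part of the transcript each probe set covers, so these are not read as levels of the mature miRNA. The mature sequences of the leading genes are shown 5′ to 3′ with the seed, bases 2 to 8, in capitals (GRCm38.p6). Only the sequences of Mir680-1 and Mir680-2 shared a seed.
miR-31-5p, chr4:88910614-88910635, minus strand: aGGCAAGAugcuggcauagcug
miR-31-3p, chr4:88910577-88910599, minus strand: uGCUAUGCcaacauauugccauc
miR-18a-5p, chr14:115043867-115043889, plus strand: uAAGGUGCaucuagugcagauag
miR-135b-3p, chr1:132198142-132198163, plus strand: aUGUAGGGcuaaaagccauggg
miR-680, chr6:129691541-129691561 and chrX:144297790-144297810, plus strand: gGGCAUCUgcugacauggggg

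The same comparison in wild-type shares no array with the F/F one, and no test of the difference between the genotypes can be made with 1 array per group. In wild-type 791 genes (6.56%) passed 2-fold upward and 640 (5.31%) downward, 1431 (11.9%) in all. The 439 genes higher in both were 60.9% of the F/F and 55.5% of the wild-type genes, and the 311 lower in both were 67.6% and 48.6%. Of the 721 genes higher in F/F 81 were below 0 in wild-type, and of the 460 lower in F/F 6 were above 0. Between the normal arrays 195 genes (1.62%) differed by 2-fold or more, 86 (0.713%) higher in F/F and 109 (0.904%) lower. Between the tumour arrays 266 genes (2.21%) did, 205 (1.7%) higher in F/F and 61 (0.506%) lower.

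**Figure D5:**
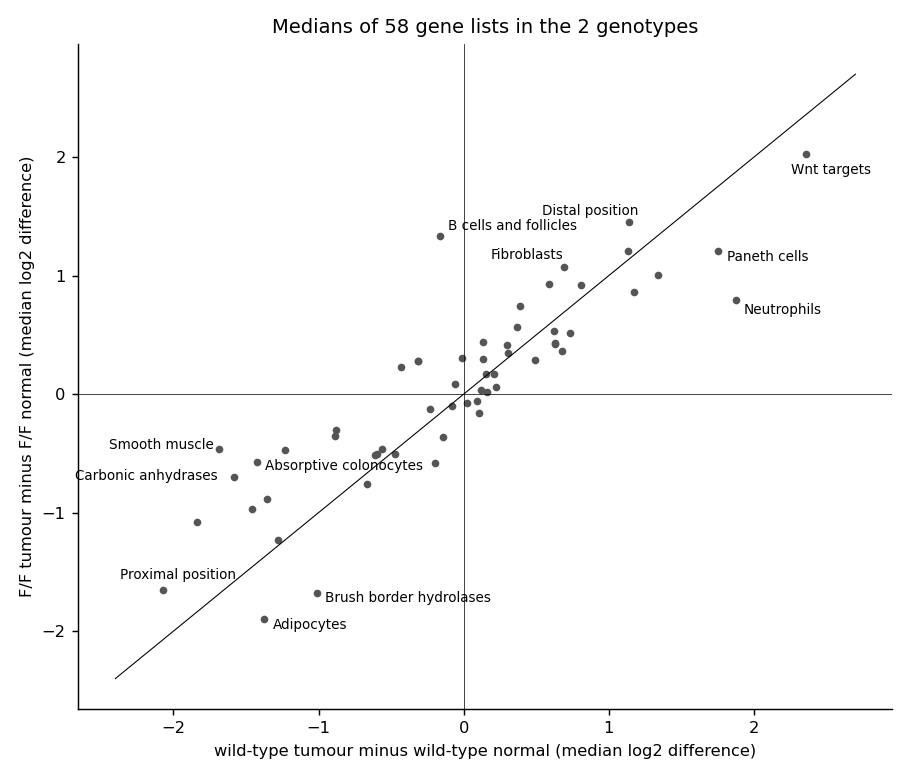
Median tumour minus normal log2 difference of 58 gene lists in wild-type (x axis) and F/F (y axis), with a line of equal values; each point is a list of at least 5 genes from 1 pair of arrays per genotype. Most lists lie along the line, with B cells at 1.34 in F/F and -0.16 in wild-type, and smooth muscle at -0.46 and -1.68.

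The F/F normal array supplied part of several differences. With the wild-type normal array in its place, 399 of the 721 higher genes and 183 of the 460 lower genes still passed 2-fold, and all of the 30 highest and all of the 30 lowest did. For Sis, Ugt2b5 and 9130221F21Rik both signals in that comparison were below the median level. The median of adipocyte genes was then -0.78, that of brush border hydrolases -0.81 and that of distal position genes 1.01, while Wnt targets stayed at 1.98, metalloproteinases at 1.01 and B cells at 1.18. Other settings moved these too: the Wnt target median was 1.32 with the dimmest probe set of each gene, and the metalloproteinase median was 1.89 with a stricter level filter and 0.52 with values raised to the median level. Selp, an endothelial selectin at 3.87 in F/F normal colon and 4.95 in F/F tumour, then differed by -0.36, and Cldn8 by -0.43.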

How the data were processed

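The authors deposited log2 values of 41345 probe sets on 4 Affymetrix arrays hybridised with tissue RNA; RMA and oligo are named as the normalization tools per the submitters' processing notes. No version and no genome build for that step is given in the sources used here. Probe sets were named through GEO's platform annotation and RefSeq (GRCm38.p6): 23521 had 1 gene, 1814 several and 16010 none, and of the first 23328 matched RefSeq while 193 kept their own symbol. Of 1082 genes with several probe sets the one with the highest mean over the 4 arrays was used. Genes were compared where 1 array reached log2 4.67, the median over genes of the mean level. Each result is a difference of 2 log2 values, counted at 1 or more, with no test, since each group had 1 array, which limits the precision. Named genes were the 30 largest differences each way, list members with the largest differences first, Slc11a2 and Apc. The members and lists were chosen with earlier results of these data known. Gene families (Hox clusters, defensins, immunoglobulin segments, solute carriers, miRNA genes) were grouped by symbol after their values were seen. The counting step was tested on simulated data. Alternatives covered the filter, threshold, probe set rule, between-array normalization (limma 3.58.1 in R 4.3.3) and the baseline array. Python 3.11.15 with pandas 2.3.3 and numpy 2.4.6 was used, with matplotlib 3.10.9 for plots.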

Additional observations from a re-analysis of the deposited data

Results flagged for a closer look

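Some genes passed 2-fold in opposite directions in the 2 genotypes, and this difference was not tested, since each group had 1 array. St8sia5, a sialyltransferase, differed by 1.98 in F/F and -1.24 in wild-type, Xist by 1.55 and -1.84, and Cyp2d13 by 1.33 and -1.25. The immunoglobulin segment Igkv9-124 differed by 1.22 and -1.13, Apol7c by 1.18 and -1.25, and 2010106E10Rik by 1.03 and -1.0. The medians of 2 lists also had opposite signs beyond 0.25: tuft cells at 0.28 in F/F and -0.32 in wild-type, and plasma cells at 0.28 and -0.31.

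Probe sets outside the gene comparison also differed. Of 7321 probe sets with no gene name that reached the level filter 695 were higher by 2-fold or more and 201 lower, from -4.51 to 5.07, with 172 higher and 86 lower in both genotypes. Beside the 5.98% and 3.81% over the genes compared, the higher share was larger and the lower share smaller. The parts shared with wild-type were smaller than the 60.9% and 67.6% of those genes. Of 871 probe sets with several genes 45 were higher and 20 lower, from -3.39 to 5.16.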

How the results depend on the processing

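No paired analysis was possible because each group had 1 array and no replicate numbers. With a threshold of log2 1.5 there were 298 higher and 181 lower genes, and against the wild-type normal array 482 and 253. Against that array Selp reversed to -0.36 and Cldn8 to -0.43, and the medians of MHC class II genes (-0.22) and plasma cell genes (-0.31) also turned negative; the cause was not tested. Median centring, quantile and cyclic loess normalization shifted all genes by -0.08 to -0.10 and gave 628 higher and 567 lower, 606 and 575, and 629 and 563, so the higher share of called genes went from 61.05% to between 51.3% and 52.8%. Without the level filter 766 were higher and 506 lower, and with a stricter one 547 and 395 of 8782 genes. The mean over probe sets gave 691 and 455, and the dimmest probe set 695 and 457. With values raised to log2 4.67 the counts were 547 and 395. The proximal position median was -0.98 without the level filter. Signals near the array background limit the differences of genes below log2 4.67 on an F/F array.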
